A study of Mus musculus with 9 samples.

Results

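The nonparenchymal cell markers of the liver were followed as a set of 33 gene symbols in 3 blocks, for Kupffer cells, sinusoidal endothelial cells and stellate cells or fibroblasts. The members were taken by symbol from the 37583 genes of the authors' normalized expression table. Adgre1 and Emr1 name the same gene, which the table lists as Emr1, so the set held 32 genes, with 12 in the Kupffer block, 10 in the endothelial block and 10 in the stellate block. All 32 were above the table's floor value of 1 in at least 3 libraries and were tested, among 20029 tested genes. Acta2 alone reached that floor in any library.

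The liver is mostly hepatocytes by mass, and the nonparenchymal cells line and support its blood channels. Kupffer cells are resident macrophages inside the sinusoids, which take up particles, dying blood cells and complement-coated debris. Sinusoidal endothelial cells form a fenestrated wall and clear waste macromolecules from blood through scavenger receptors. Stellate cells lie between that wall and the hepatocytes, store vitamin A as retinyl esters, and become collagen-producing, contractile cells in fibrosis.

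RNA was sequenced from liver punches of 9 male C57Bl6 mice of 16 to 20 weeks that had fasted for 6 h. Wild type mice were Gcgr+/+ and received PBS, and a second group labelled Gcgr-/- also received PBS (knockout-labelled). The remaining group was Gcgr+/+ and received 10 mg/kg of a monoclonal, humanized antibody against the glucagon receptor, given weekly into the peritoneum for 10 days (antibody-labelled). Each group had 3 libraries, and since the labels do not describe litters or batches, p-values measure only the spread between these samples. How the Gcgr-/- allele was made is not given in the labels. Values are the authors' normalized counts, and fold changes are on the scale of log2(value + 1), with limma p-values adjusted by the Benjamini-Hochberg method over all tested genes at a threshold of 0.05.

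Gcgr, the gene of the glucagon receptor itself, went against the labels. It was at 19547, 17565 and 18451 normalized counts in the wild type libraries and at 27365, 19656 and 21129 in the libraries labelled knockout. In the libraries labelled antibody it was at 2271, 2496 and 1808. The libraries labelled knockout were thus not lower than wild type (log2 fold change 0.28, SE 0.149, limma adjusted p = 0.434), and those labelled antibody were lower than wild type by far more than the spread (-3.09, SE 0.149, adjusted p = 2.29e-06). The table gives 1 value per gene and does not show which exons carried the reads. Groups are therefore called by their labels throughout, and any direction below is a direction between labelled groups.

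By the worth of a single read, the libraries held an estimated 10.99 to 30.06 M reads assigned to genes, with the lowest in knockout-labelled library 1. That library also stood apart on the first principal component of all tested genes (22.9% of the variance), at 84.3, against -19.2 to 1.71 for the other 8. The second component (16.3%) separated the labelled groups. Block medians and several single estimates are given with and without this library below.

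No marker of any of the 3 cell types passed the threshold in any comparison. In knockout-labelled against wild type, 0 of 32 members passed in limma, beside 0.155% of all tested genes, and 3 of 32 had an unadjusted p under 0.05, beside 13.8% of all tested genes. In antibody-labelled against wild type, 0 of 32 passed, beside 1.34%, and 2 of 32 had an unadjusted p under 0.05, beside 10.3%. In antibody-labelled against knockout-labelled, 0 of 32 passed, beside 0.28%, and 3 of 32 had an unadjusted p under 0.05, beside 13.3%. A difference that misses the threshold is not shown to be absent, so the intervals carry the information here. In the same order of comparisons, the 95% interval of the fold change lay wholly within 2-fold in either direction for 28, 27 and 28 of the 32 genes, beside 64.6%, 64.9% and 64.5% of all tested genes. The exceptions in knockout-labelled against wild type were Marco, Lyve1, Col1a1 and Acta2. In antibody-labelled against wild type they were those 4 and Col3a1, and between antibody-labelled and knockout-labelled they were Marco, Lyve1, Lrat and Acta2.

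**Figure D1:**
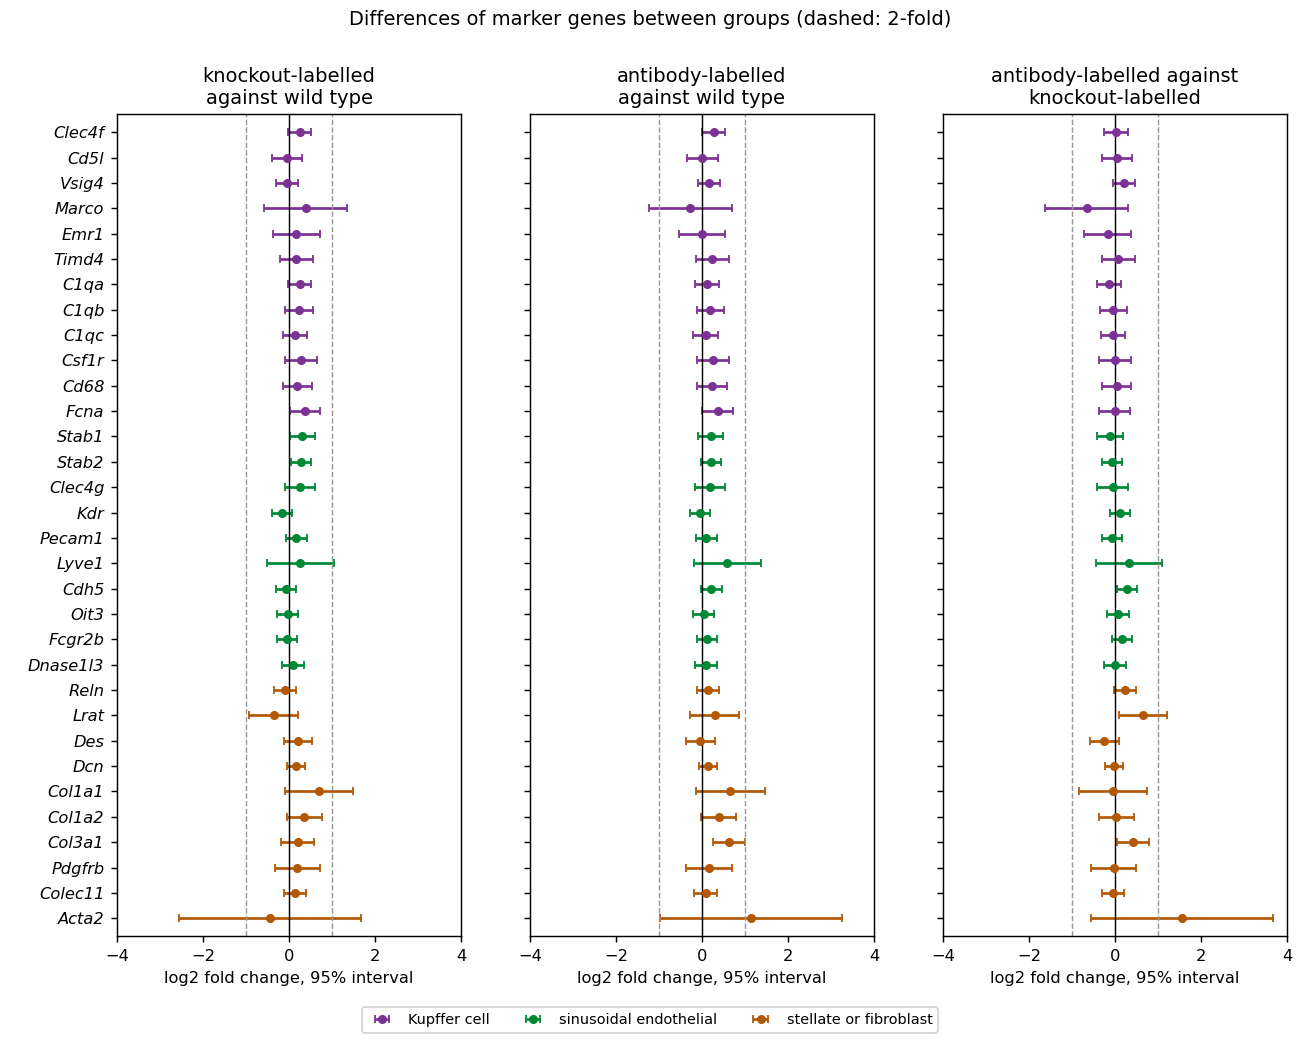
Log2 fold change (horizontal axis) of each of the 32 marker genes (vertical axis) in the 3 comparisons, with points for the limma estimate, bars for the 95% interval and colours for the block. Most bars lie within 1 log2 unit of 0, and Acta2 has the widest, from -2.55 to 1.68 in knockout-labelled against wild type.

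As blocks, the markers sat slightly above wild type in both other groups. The median log2 fold change of knockout-labelled against wild type was 0.21 for Kupffer, 0.13 for endothelial and 0.18 for stellate markers, beside -0.01 over all tested genes. The medians of antibody-labelled against wild type were 0.17, 0.15 and 0.23, beside 0.00 over all tested genes. Leaving out a library gave 0.11 to 0.27 for Kupffer, 0.10 to 0.19 for endothelial and 0.14 to 0.34 for stellate markers. Without wild type library 2 the Kupffer median was the lowest and the stellate median the highest, and without wild type library 3 the reverse held. These comparisons share the wild type libraries. Estimates above 0 were found for 23 of 32 members against wild type in the knockout-labelled group (48.6% of all tested genes) and for 29 of 32 in the antibody-labelled group (50.3%). Between the antibody-labelled and knockout-labelled groups the block medians were -0.00, 0.04 and 0.00, beside 0.02 over all tested genes, and 16 of 32 members lay above 0 (53.5% of all tested genes). Without knockout-labelled library 1 these medians were 0.15, 0.09 and 0.16, beside 0.00 over all tested genes, and 24 of 32 members lay above 0 (50.6% of all tested genes). Without knockout-labelled library 2, 11 of 32 did (54.5% of all tested genes). With the libraries scaled to equal sums, the median of all tested genes in that last comparison was 0.13, and 27 of 32 members lay above 0 (67.3% of all tested genes). In bulk RNA, a difference in the number of cells of a type and a difference in their RNA per cell cannot be told apart.

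The block medians were set against the spread within groups. The level of a block in a library was taken as the mean deviation of its genes from their own 9-library means on the log2 scale. The pooled SD of this level within groups was 0.224 for Kupffer, 0.0927 for endothelial and 0.203 for stellate markers. That SD describes single libraries and a mean over genes, whereas a block median is taken over genes of differences between group means. It serves only as a scale, not a test, and was kept at its 9-library value when a library was left out. Both Kupffer medians against wild type were within that SD, but exceeded it without wild type library 3 (0.32 knockout-labelled, 0.27 antibody-labelled). The knockout-labelled one also did without library 2 of its group (0.35). Both endothelial medians exceeded their SD, the knockout-labelled one not without library 1 (0.04) or 2 (0.08) of its group. Of the stellate medians only that of the antibody-labelled group did. It fell below the SD without wild type library 1 (0.18) or 3 (0.14) or antibody-labelled library 2 (0.20). The knockout-labelled stellate median exceeded the SD without wild type library 2 (0.24). The Kupffer level was -0.16, -0.28 and 0.11 in wild type, 0.41, -0.23 and 0.06 in the knockout-labelled group, and -0.06, 0.08 and 0.06 in the antibody-labelled group. Both the highest and the second lowest Kupffer level of the series were therefore in the knockout-labelled group, and all 3 groups overlapped. The endothelial level was -0.07, -0.21 and -0.00 in wild type, 0.07, 0.05 and -0.08 in the knockout-labelled group, and 0.01, 0.04 and 0.18 in the antibody-labelled group. Endothelial levels were all higher in antibody-labelled than in wild type libraries, the nearest pair being 0.01 and -0.00. The stellate level was -0.16, 0.06 and -0.36 in wild type, -0.22, -0.04 and 0.11 in the knockout-labelled group, and 0.01, 0.46 and 0.14 in the antibody-labelled group. It was highest in antibody-labelled library 2 and lowest in wild type library 3, and the groups overlapped. The level weighs all genes alike, so the stellate levels and their SD depend in part on Acta2, a gene near the floor. Acta2 was at 1 in knockout-labelled library 1 and at 57.5 in antibody-labelled library 3. The stellate level without Acta2 was not computed.

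**Figure D2:**
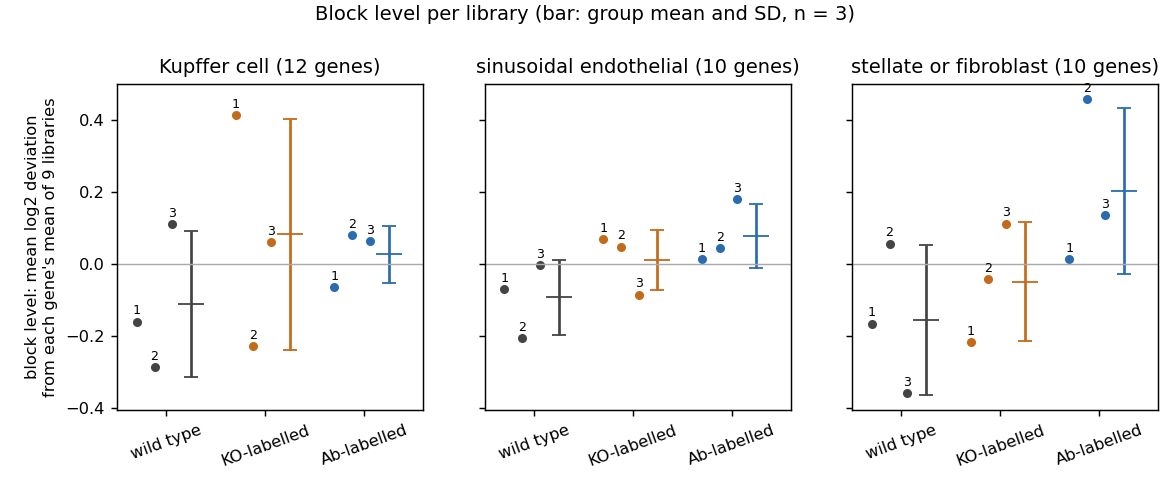
Level of each marker block per library (vertical axis, mean log2 deviation of the block's genes from their means over 9 libraries) by labelled group (horizontal axis), with the replicate number at each point and bars for the group mean and SD (n = 3). The Kupffer level of knockout-labelled library 1 is 0.41 and that of library 2 in the same group is -0.23.

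The Kupffer block held the highest levels per length. Per kilobase of exon, its highest members were Cd5l at 3334, C1qa at 2939 and Clec4f at 2559 normalized counts over 9 libraries, and its lowest was Timd4 at 222. The Kupffer block ran from macrophage recognition receptors (Clec4f, Marco, Vsig4, Timd4, Emr1, Cd68) and secreted defence proteins (Cd5l, Fcna and the C1q chains) to Csf1r, the receptor for the growth factor that macrophages need to survive. Clec4f, a lectin restricted to Kupffer cells in mouse, was at 5503, 4973 and 6325 normalized counts in wild type, 7276, 5871 and 6781 in the knockout-labelled group, and 6104, 7193 and 6888 in the antibody-labelled group. Its groups overlapped, and the log2 fold changes against wild type were 0.25 (SE 0.125, adjusted p = 0.413) and 0.27 (SE 0.125, adjusted p = 0.498). Cd5l, a secreted scavenger receptor protein made by macrophages, was at 6536, 5820 and 8181 in wild type, 7503, 5296 and 7181 in the knockout-labelled group, and 6059, 7600 and 6921 in the antibody-labelled group. The spread of Cd5l within each group exceeded every difference between group means, and the fold changes against wild type were -0.04 and 0.01 (SE 0.162 each).

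C1qa, C1qb and C1qc encode the A, B and C chains of C1q, which together make the recognition molecule of the classical complement pathway and in liver come mainly from macrophages. The table places them side by side on the minus strand of mouse chromosome 4 in mm9, C1qb at chr4:136436044-136442102, C1qc at chr4:136445719-136448980 and C1qa at chr4:136451832-136454718. The promoter sequences of C1qb and C1qc are shown as examples from the block, and their part in the levels was not tested. They are from RefSeq (GRCm38.p6), 250 bases before to 50 after the start, read 5′ to 3′ on the minus strand, at chr4:136886151-136886450 for C1qb and chr4:136892865-136893164 for C1qc. Capitals mark GAGGAA, or its reverse complement TTCCTC, letters of the kind that ETS-family factors such as the macrophage factor PU.1 bind.
C1qb: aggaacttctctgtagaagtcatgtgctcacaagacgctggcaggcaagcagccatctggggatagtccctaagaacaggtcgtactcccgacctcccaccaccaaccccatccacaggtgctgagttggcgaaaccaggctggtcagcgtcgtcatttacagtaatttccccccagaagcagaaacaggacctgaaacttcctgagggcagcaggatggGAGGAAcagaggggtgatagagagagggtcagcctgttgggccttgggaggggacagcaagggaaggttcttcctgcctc
C1qc: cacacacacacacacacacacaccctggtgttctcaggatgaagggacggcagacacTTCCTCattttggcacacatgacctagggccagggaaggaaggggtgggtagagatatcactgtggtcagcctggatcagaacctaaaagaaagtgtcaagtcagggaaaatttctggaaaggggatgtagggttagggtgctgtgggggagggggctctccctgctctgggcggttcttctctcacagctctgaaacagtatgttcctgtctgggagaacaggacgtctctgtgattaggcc
Searched on both strands, these letters occurred in 28.3% of 32851 promoters of this length, and in 9 of the 21 members that have one in the promoter set. The match lies 30 bases before the start in C1qb and 193 bases before it in C1qc.

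C1qa was at 2593, 2587 and 3269 normalized counts in wild type, 3643, 2861 and 3489 in the knockout-labelled group, and 3008, 3111 and 2949 in the antibody-labelled group. The C1qa groups overlapped (log2 fold change 0.24, SE 0.126, adjusted p = 0.423 for knockout-labelled against wild type). C1qb and C1qc, whose promoters are printed above, gave 0.23 (SE 0.145, adjusted p = 0.515) and 0.14 (SE 0.129, adjusted p = 0.680) in the same comparison. The ratio of C1qa to C1qb stayed between 1.05 and 1.24 over the 9 libraries. That of C1qa to C1qc stayed between 1.04 and 1.17, and that of C1qb to C1qc between 0.917 and 1.07. The 3 chains thus varied little relative to each other.

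Fcna, a plasma ficolin that binds microbial sugars, had the smallest unadjusted p of the Kupffer block. It was at 2662, 2639 and 3199 normalized counts in wild type, 4896, 2995 and 3318 in the knockout-labelled group, and 3390, 3706 and 3841 in the antibody-labelled group. All antibody-labelled libraries were above all wild type libraries, and knockout-labelled library 1 was far above the rest of its group. The log2 fold change was 0.37 in both comparisons with wild type (SE 0.164 each), with adjusted p = 0.344 for the knockout-labelled and 0.469 for the antibody-labelled group. Without knockout-labelled library 1, the first of these was 0.16. Cd68, a lysosomal glycoprotein of phagocytes, was also higher in every antibody-labelled than in every wild type library, at means of 678.8 ± 30.4 and 579.8 ± 54.0 (SD, n = 3 each), which gave 0.23 on the log2 scale (limma adjusted p = 0.737).

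Marco, a scavenger receptor for bacteria and particles, varied most of the Kupffer block. It was at 1311, 1141 and 1626 normalized counts in wild type, 3547, 1002 and 1534 in the knockout-labelled group, and 945.8, 1003 and 1462 in the antibody-labelled group. Apart from the single high value of knockout-labelled library 1, the groups overlapped throughout. Its log2 fold changes were the highest of the block against wild type in the knockout-labelled group (0.39, 95% interval -0.58 to 1.35) and the lowest in the antibody-labelled group (-0.27, -1.24 to 0.70). Without knockout-labelled library 1 the first of these turned to -0.12, below wild type. Vsig4, a complement receptor that captures opsonised particles, held at 1719 ± 197, 1665 ± 168 and 1909 ± 93.0 in the 3 groups in the same order, with a fold change of -0.05 and 0.16 against wild type. The other members, Emr1 (the F4/80 antigen), Timd4 (a receptor for phosphatidylserine on dying cells), and Csf1r, gave log2 fold changes against wild type of 0.16, 0.17 and 0.27 in the knockout-labelled group and 0.00, 0.24 and 0.27 in the antibody-labelled group. Without knockout-labelled library 1, the first 3 values became -0.14, 0.07 and 0.06, so that Emr1 turned below wild type.

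A single library carried much of the Kupffer pattern in knockout-labelled against wild type. Knockout-labelled library 1 was the highest of the 9 libraries for 9 of 12 Kupffer genes, 4 of 10 endothelial genes and 2 of 10 stellate genes, beside 18.8% of all tested genes. It was the lowest for 0 Kupffer, 1 endothelial and 2 stellate genes, beside 22.9% of all tested genes. Wild type library 2 was the lowest for 7 of the 12 Kupffer genes, beside 10.1% of all tested genes. Without knockout-labelled library 1, the Kupffer median of knockout-labelled against wild type went from 0.21 to 0.06 and the endothelial median from 0.13 to 0.04, while the stellate median remained 0.18. In the same comparison the estimates of Cd68 and Clec4g went from 0.19 and 0.25 to 0.03 each, those of C1qb and C1qc from 0.23 and 0.14 to 0.12 and 0.06, and those of Col1a2 and Col3a1 from 0.36 and 0.20 to 0.21 and 0.12. Lyve1 went up from 0.26 to 0.51, and Acta2 turned from -0.43 to 0.51. The same library had the fewest estimated reads and the highest level of 9 tested hepatocyte genes (0.43, against -0.17 to 0.09 elsewhere), with summed hepatocyte values of 1742327 to 2046933 normalized counts in wild type, 1745506 to 2763158 in the knockout-labelled group and 1693038 to 1820873 in the antibody-labelled group. Their part in the Kupffer values was not tested.

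**Figure D3:**
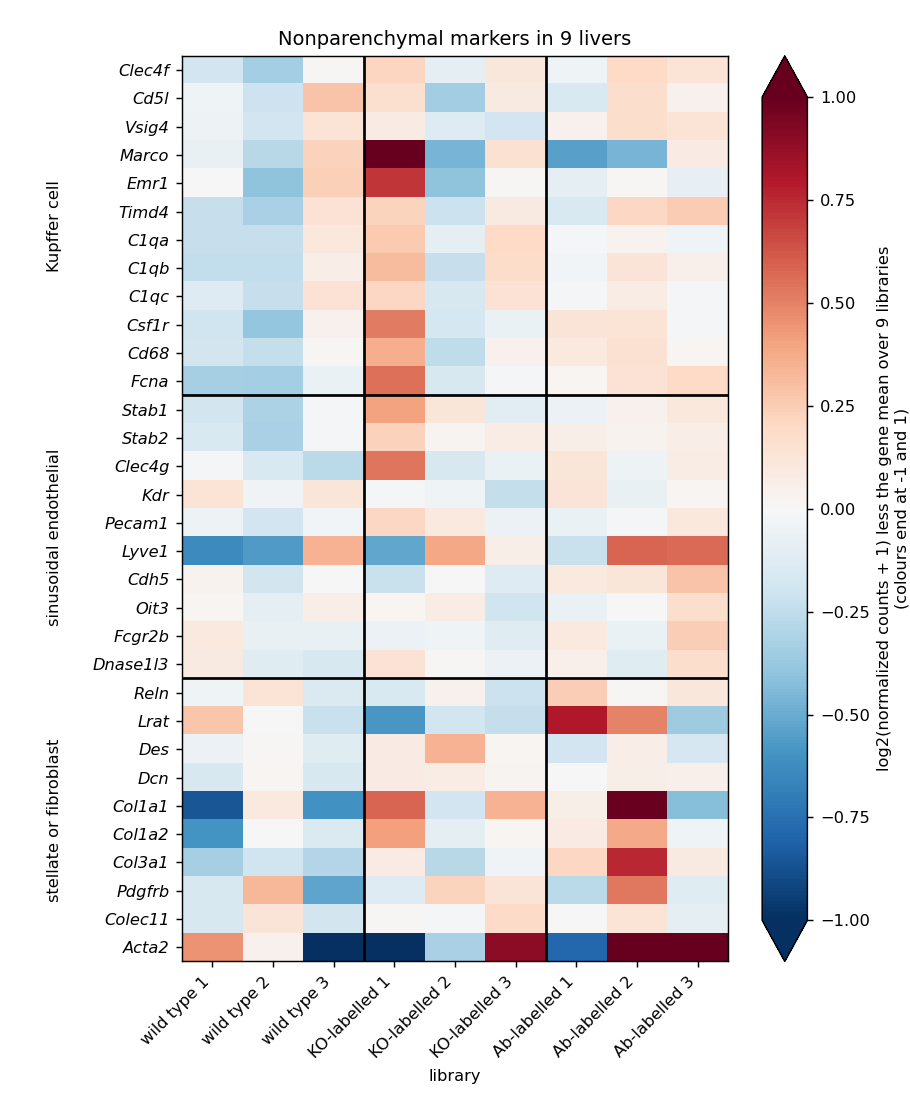
Deviation of each marker gene (rows, by block) in each library (columns, by labelled group) from the gene's mean over 9 libraries, as a colour on the log2 scale. Knockout-labelled library 1 is the highest in 9 of the 12 Kupffer rows, and antibody-labelled library 2 is the highest in the stellate rows Col1a1, Col3a1 and Pdgfrb.

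The endothelial block was the steadiest. Its genes had a median coefficient of variation over the 9 libraries of 9.51%, beside 14.1% for Kupffer and 21.4% for stellate markers. The median was 12.7% for 7127 tested genes at 441.3 to 4556 normalized counts, the 10th to 90th percentile of the members of all blocks together. Endothelial means ran from 1610 to 4477 normalized counts, so those genes reach lower levels and are not matched to this block. A comparison with genes at the levels of the endothelial block alone was not made. Without knockout-labelled library 1 the median coefficients of variation were 8.90%, 12.1% and 21.0% for the 3 blocks, endothelial markers first, then Kupffer and stellate markers. Per kilobase of exon, the endothelial levels ran from 1539 normalized counts for Clec4g, a C-type lectin of the sinusoid, to 258.4 for Pecam1, a junction protein of all endothelium.

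Stab1 and Stab2, the stabilins that clear hyaluronan and other waste molecules from blood, had the smallest p-values of the block in knockout-labelled against wild type. Stab2 was at 3248, 2889 and 3580 normalized counts in wild type, 4234, 3686 and 3812 in the knockout-labelled group, and 3763, 3696 and 3780 in the antibody-labelled group. Every library of the other two groups lay above every wild type library, with log2 fold changes of 0.27 (SE 0.107, adjusted p = 0.281) and 0.22 (SE 0.107, adjusted p = 0.545). Stab1 was at 3297, 3015 and 3716 in wild type, 4952, 4087 and 3493 in the knockout-labelled group, and 3601, 3857 and 4024 in the antibody-labelled group. Its groups overlapped, at 0.31 (SE 0.134, adjusted p = 0.329) and 0.20 (SE 0.134, adjusted p = 0.734) against wild type, and without knockout-labelled library 1 the first of these was 0.18. The ratio of Stab1 to Stab2 stayed between 0.916 and 1.17.

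Cdh5, the VE-cadherin of endothelial junctions, was at 2586, 2223 and 2535 normalized counts in wild type, 2171, 2540 and 2308 in the knockout-labelled group, and 2702, 2753 and 3080 in the antibody-labelled group. All antibody-labelled libraries were above all others. The log2 fold change was 0.22 (SE 0.109, adjusted p = 0.549) against wild type and 0.28 (SE 0.109, adjusted p = 0.297) against the knockout-labelled group. Kdr, the main receptor for vascular endothelial growth factor and the endothelial member with the highest normalized count, was at 4904, 4357 and 4862 in wild type, 4396, 4340 and 3780 in the knockout-labelled group, and 4883, 4244 and 4524 in the antibody-labelled group. It had the lowest log2 fold changes of the block against wild type, -0.18 (SE 0.106, adjusted p = 0.502) and -0.05 (SE 0.106, adjusted p = 0.953), with overlapping groups.

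Lyve1, a hyaluronan receptor strong in the sinusoids of the middle of the lobule, was the variable member of the block. It was at 1215, 1279 and 2412 normalized counts in wild type, 1322, 2480 and 1975 in the knockout-labelled group, and 1617, 2828 and 2795 in the antibody-labelled group. Low and high libraries occurred in all 3 groups, and the log2 fold change of antibody-labelled against wild type was 0.59 with a 95% interval from -0.19 to 1.37 (adjusted p = 0.664). Its ratio to Stab2 ranged from 0.312 to 0.765. The other 5 members were Clec4g, Pecam1, Oit3 (a secreted zona pellucida domain protein), Fcgr2b (the inhibitory Fc receptor that takes up immune complexes) and Dnase1l3 (a secreted DNase). Their log2 fold changes against wild type ran from -0.06 to 0.25 in the knockout-labelled group and from 0.04 to 0.19 in the antibody-labelled group.

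**Figure D4:**
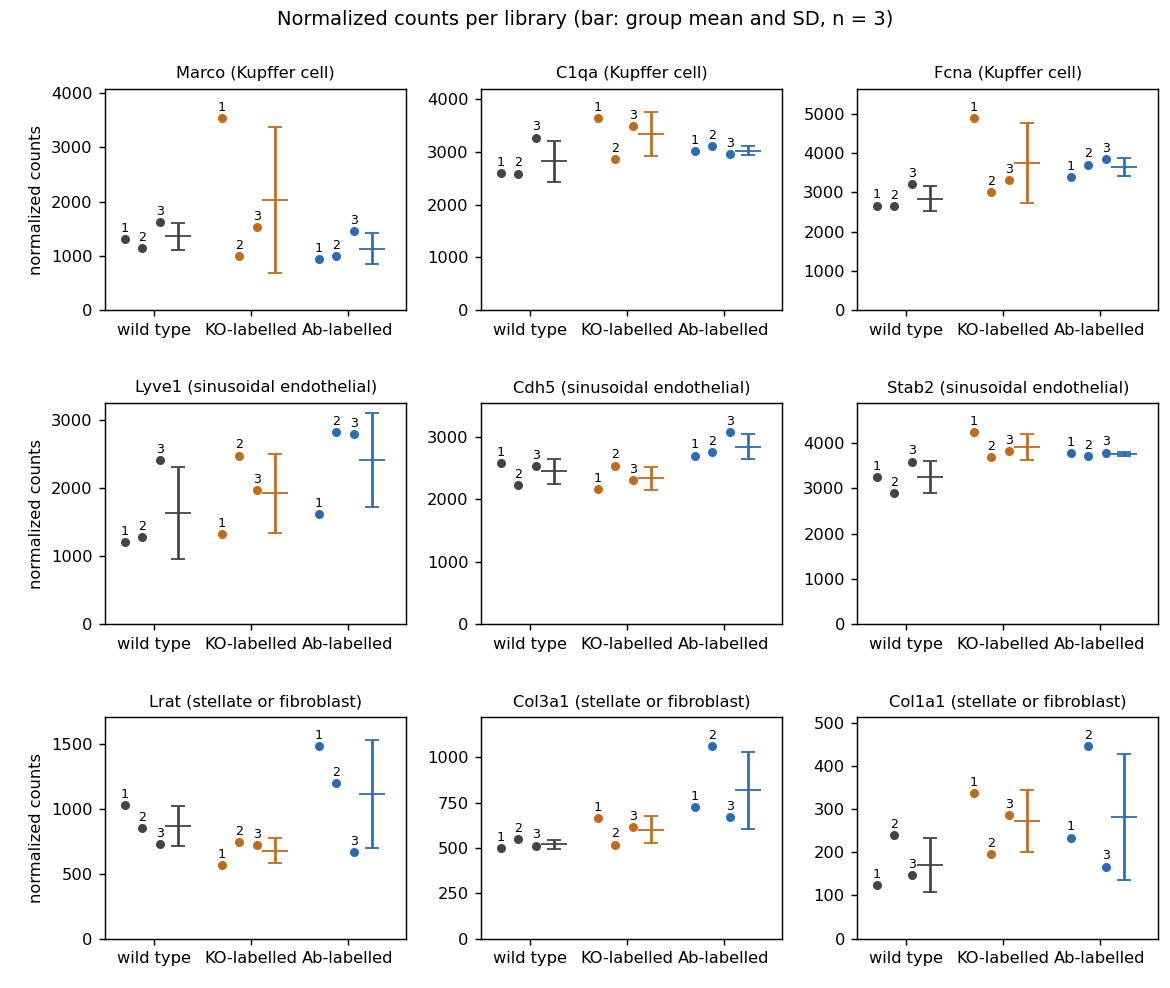
Normalized counts (vertical axes, from 0) per library by labelled group (horizontal axes) for 9 marker genes, with replicate numbers at the points and bars for the group mean and SD (n = 3). Marco reaches 3547 in knockout-labelled library 1, and Cdh5 is higher in all antibody-labelled libraries than in all others.

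The stellate block had the highest median coefficient of variation, but its members differed widely. Dcn, Colec11, Reln and Des were at 6.30%, 9.20%, 10.7% and 12.0% over the 9 libraries. The other members ran from 19.9% for Col1a2 to 104% for Acta2, with Lrat at 33.3%. Dcn, the small proteoglycan decorin that binds collagen fibrils, was the most abundant member and the most even of all 32 genes. It was at 8033, 9079 and 8032 normalized counts in wild type, 9512, 9436 and 9148 in the knockout-labelled group, and 8937, 9355 and 9286 in the antibody-labelled group. All knockout-labelled libraries were above all wild type libraries, by a log2 fold change of 0.16 (SE 0.0966, adjusted p = 0.494), and the antibody-labelled group, at 0.14 (SE 0.0966, adjusted p = 0.762), overlapped wild type.

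Lrat, the enzyme that esterifies retinol for storage in quiescent stellate cells, was at 1030, 848.2 and 727.0 normalized counts in wild type, 566.8, 744.6 and 718.3 in the knockout-labelled group, and 1481, 1198 and 663.4 in the antibody-labelled group. The antibody-labelled group held both the 2 highest and the second lowest value. Antibody-labelled was above knockout-labelled by 0.65 on the log2 scale (SE 0.257, 95% interval 0.09 to 1.22, adjusted p = 0.312), an estimate that was 0.41 without antibody-labelled library 1 and 0.99 without library 3 of that group. Reln, the secreted glycoprotein reelin, and Colec11, a secreted collectin, gave log2 fold changes against wild type of -0.09 and 0.13 in the knockout-labelled group and 0.14 and 0.08 in the antibody-labelled group. Des, the intermediate filament desmin, was higher in every knockout-labelled library (314.8 ± 39.4) than in every wild type library (271.5 ± 12.9), by 0.21 on the log2 scale (adjusted p = 0.589), and was at 264.8 ± 27 in the antibody-labelled group.

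Of the fibrillar collagens, Col1a1 had the highest estimate of any member against wild type in the knockout-labelled group, and the highest after Acta2 in the antibody-labelled group. Col3a1, the chain of type III collagen, was at 497.8, 546.8 and 512.4 normalized counts in wild type, 666.5, 518.8 and 613.0 in the knockout-labelled group, and 725.6, 1061 and 668.2 in the antibody-labelled group. Every antibody-labelled library was above every library of both other groups, though library 3 of that group (668.2) lay close to knockout-labelled library 1 (666.5). The log2 fold change of antibody-labelled against wild type was 0.63 (SE 0.173, 95% interval 0.25 to 1.00, adjusted p = 0.133), the smallest adjusted p of the 32 genes in any comparison. It passed the threshold only in the fit with library quality weights (0.66, adjusted p = 0.0448), and without antibody-labelled library 2 it was 0.42.

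Col1a2, a chain of type I collagen, was at 406.4, 614.2 and 556.6 normalized counts in wild type, 816.3, 575.0 and 623.4 in the knockout-labelled group, and 650.3, 802.1 and 597.8 in the antibody-labelled group. Its groups overlapped, at 0.36 (SE 0.188, adjusted p = 0.431) and 0.39 (SE 0.188, adjusted p = 0.529) against wild type. Col1a1, the partner chain, was at 123.8, 240.8 and 147.1 in wild type, 337.5, 196.2 and 285.4 in the knockout-labelled group, and 234.2, 446.1 and 167.0 in the antibody-labelled group. The Col1a1 groups overlapped as well, at 0.70 (95% interval -0.09 to 1.49, adjusted p = 0.423) and 0.66 (-0.13 to 1.45, adjusted p = 0.616) against wild type. Both chains form the same protein, yet their ratio moved from 0.264 to 0.556 between libraries.

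Pdgfrb, the receptor for platelet-derived growth factor on stellate cells and pericytes, was at 405.0 ± 123, 451.7 ± 55.1 and 453.5 ± 140 normalized counts in the 3 groups (SD, n = 3). Acta2, the smooth muscle actin of activated stellate cells and vessel walls, was nearly absent. It was at 15.1, 11.2 and 4.21 normalized counts in wild type, at the floor of 1, 8.43 and 20.9 in the knockout-labelled group, and 5.87, 25.7 and 57.5 in the antibody-labelled group. No change of Acta2 was detectable at this depth, with intervals from -2.55 to 1.68 and from -0.98 to 3.24 against wild type.

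Groups without overlap were found for a few members in each comparison, all of them upward. In knockout-labelled against wild type, 3 members were higher in every library (Stab2, Des and Dcn), beside 7.09% of all tested genes, and 0 were lower, beside 9.35%. In antibody-labelled against wild type, 5 were higher (Cd68, Fcna, Stab2, Cdh5 and Col3a1), beside 9.65%, and 0 were lower, beside 9.54%. In antibody-labelled against knockout-labelled, 2 were higher (Cdh5 and Col3a1), beside 9.82%, and 0 were lower, beside 7.38%.

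Wider lists for the same cell types gave a single gene past the threshold. Over all tested genes, 0.155%, 1.34% and 0.28% passed in the 3 comparisons, in the order used above. At such shares, counts of 0 in lists of this length say little about a cell type. Of 22 further macrophage genes, Slc40a1, the iron exporter ferroportin of Kupffer cells and hepatocytes, was at 11071, 11163 and 8888 normalized counts in wild type, 9229, 8363 and 9344 in the knockout-labelled group, and 15843, 15985 and 20245 in the antibody-labelled group. It was higher in the antibody-labelled group than in wild type (0.74, SE 0.132, adjusted p = 0.0182) and than in the knockout-labelled group (0.94, adjusted p = 0.0267), with no overlap. Leaving out any single wild type library, or antibody-labelled library 2 or 3, took the first of these to adjusted p = 0.0526 to 0.0793. The second was lost without knockout-labelled library 1 (0.0782) and without any single antibody-labelled library (0.0555 to 0.110). Each of the 2 calls held in 13 of 19 alternatives, and the limma adjusted p reached 0.107 for the first and 0.136 for the second. These highest values came from settings other than leaving out a single library. The other macrophage genes did not pass, and against wild type the median log2 fold changes of the list were 0.13 in the knockout-labelled and 0.12 in the antibody-labelled group. In knockout-labelled against wild type, 0 of 22 passed in limma (4 at an unadjusted p under 0.05, beside 13.8% of all tested genes), and the smallest adjusted p was that of the lipopolysaccharide co-receptor Cd14 (0.71, adjusted p = 0.140).

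Of 29 further endothelial genes, 0 passed in limma in any comparison, beside 0.155%, 1.34% and 0.28% of all tested genes in the order used above. An unadjusted p under 0.05 was found for 4, 5 and 7 of them, beside 13.8%, 10.3% and 13.3% of all tested genes. Their median log2 fold changes against wild type were 0.05 in the knockout-labelled and 0.10 in the antibody-labelled group. The smallest adjusted p-values were those of Plvap, the diaphragm protein of fenestrated and venous endothelium (0.39, adjusted p = 0.143), Fabp4, a fatty acid-binding protein (0.91, adjusted p = 0.203), and Bmp2, a ligand that sinusoidal endothelium sends to hepatocytes to control iron (0.47, adjusted p = 0.204). Of 30 further stellate genes, 0 passed in limma, beside the same shares of all tested genes past the threshold. There were 3, 1 and 4 at an unadjusted p under 0.05, beside the same 3 shares with such a p. Their medians against wild type were 0.08 and 0.04, below the 0.18 and 0.23 of the stellate block. Here the smallest adjusted p-values were those of Steap4, a metalloreductase (-0.63, adjusted p = 0.142), Sparc, a collagen-binding matrix protein (0.26, adjusted p = 0.434), and Rgs5, a pericyte regulator of G protein signalling (0.50, adjusted p = 0.124). Groups without overlap went both ways in the wider macrophage, endothelial and stellate lists, given in that order. In knockout-labelled against wild type, 1, 4 and 0 genes were higher (7.09% of all tested genes), and 2, 3 and 1 lower (9.35%). In antibody-labelled against wild type, 3, 7 and 1 were higher (9.65%) and 0 lower (9.54%). Between antibody-labelled and knockout-labelled, 4, 6 and 3 were higher (9.82%), and 0, 1 and 2 lower (7.38%).

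Markers of other cells that a liver punch can hold gave 0 genes past the threshold in limma in each comparison: monocytes (10 tested genes), lymphocytes (15), neutrophils (9), bile duct cells (8), mesothelium (5), erythroid cells (7) and hepatocytes (9). In the order of comparisons used above, those at an unadjusted p under 0.05 numbered 1, 0 and 1 for monocytes, 0, 1 and 1 for neutrophils, 1, 0 and 1 for bile duct cells, 1, 0 and 0 for erythroid cells, and 2, 2 and 2 for hepatocytes, and there were 0 for lymphocytes and mesothelium. Beside them, 13.8%, 10.3% and 13.3% of all tested genes had such a p. Only 0.155%, 1.34% and 0.28% of all tested genes passed the threshold, so 0 in lists this short says little. The smallest adjusted p of the hepatocyte list was that of Apob, the main protein of very-low-density lipoprotein, in knockout-labelled against wild type (-0.54, adjusted p = 0.0871), which passed the threshold in 2 of 19 alternatives. The smallest elsewhere were 0.258 for bile duct cells (Spp1), 0.270 for neutrophils (Retnlg), 0.451 for lymphocytes (Ms4a1) and 0.468 for mesothelium (Lrrn4). The lymphocyte list was high in wild type library 3, at a summed 1016 normalized counts against 370.6 to 584.6 in the other 8. Summed monocyte markers were at 438.7 to 474.5 in wild type, 471.9 to 581.6 in the knockout-labelled group and 484.9 to 498.7 in the antibody-labelled group. In knockout-labelled against wild type, 5 of the 10 monocyte genes lay above 0 (48.6% of all tested genes). Ccr2, the chemokine receptor of inflammatory monocytes, had the smallest adjusted p of that list. It was at 48.0, 60.2 and 71.6 in wild type, 28.5, 34.4 and 25.4 in the knockout-labelled group, and 62.6, 55.3 and 43.8 in the antibody-labelled group. Every knockout-labelled library was below every other (log2 fold change -0.99 against wild type, SE 0.272, limma adjusted p = 0.146). These values rest on few reads, since 1 read was worth an estimated 4.74 normalized counts in knockout-labelled library 1. Against the low monocyte sums, the Kupffer block summed to 28673 to 45251 normalized counts in every library. The part of these lists in the marker values was not tested.

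The spans of 10 of the 32 members overlap other annotated genes in the table, among them Fcna, Stab1, Stab2, Lrat, Des and Col1a1. Whether counting used strand is not given in the sources used here, so reads of such neighbours may be included in their values.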

How the data were processed

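Poly(A)-selected liver RNA was sequenced in 9 libraries with paired-end reads of 50 bases (HiSeq2500), per the labels. Build mm9 and the tools TopHat2 2.0, SAMtools and FastQC are named in the submitters' processing notes, and how reads were counted and scaled is not given in the sources used here. For each gene and library the authors deposited a signal, called normalized counts here, with a floor of 1. Coordinates of genes are those of that table, in mm9. Depth was estimated by taking the commonest value above the floor as 1 read, and only 40.8% to 45.8% of values under 10 reads were whole within 0.01 read, so no count model was used.

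Values were analysed as log2(value + 1) for 20029 genes above 1 in at least 3 of 9 libraries, and 17554 genes were not tested. Group means of all 9 libraries were fitted with limma 3.58.1 in R 4.3.3 (lmFit, eBayes with trend and robust estimation, two-sided), which was tested on simulated data. An exact permutation of 3 against 3 libraries cannot give less than 0.1 and was not run. Exon lengths were taken from GENCODE M21 by Ensembl ID and promoters from RefSeq by symbol, which matched 21 of 32 members. Values in every library are given, per block, for the 3 members with the smallest p and the member with the highest mean. Marco, Lyve1, Col1a1, Acta2 and Cd68 were added after their values were seen, and members with the highest or lowest fold change of a block are given as single values. Of 147 genes in the 10 wider lists, 144 were tested, and those past the threshold or with the smallest adjusted p were named, for the smaller lists once over the 3 comparisons, apart from 1 that is not reported here. The members and lists were chosen with earlier results of these data known.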

Additional observations from a re-analysis of the deposited data

How the results depend on the processing

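The 3 counts of markers past the threshold were recomputed under 19 alternatives, 9 of which leave out a library. All were 0, except that library quality weights gave 1 in antibody-labelled against wild type (Col3a1). The counts over all tested genes moved far more. For knockout-labelled against wild type the 31 genes became 65 with no filter on low values, 19 with equal library sums, 15 with only the 6 libraries compared, 0 with limma's eBayes without trend and robust estimation (2402 at an unadjusted p under 0.05), and 4 to 145 when a library was left out. For antibody-labelled against wild type the 268 became 71 without trend and robust estimation, 666 with library weights and 105 to 290 when a library was left out. For antibody-labelled against knockout-labelled the 56 became 23 with a pseudocount of 10, 29 with median-of-ratios scaling, 1 without trend and robust estimation, 19 with library weights, 16 with only the 6 libraries compared, and 1 to 82 when a library was left out. The endothelial median of knockout-labelled against wild type was 0.036 to 0.18 when a library was left out, lowest without knockout-labelled library 1. That of antibody-labelled against knockout-labelled was 0.15 with equal library sums, a scaling that moved the median of all tested genes to 0.13. The Kupffer median in that comparison was 0.15 without knockout-labelled library 1 and -0.14 without library 2 of that group. The cause of these moves was not tested.

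With the replicate number as a block, 0 markers passed in each comparison, and 38, 251 and 45 of all tested genes passed in the order used above. The labels do not say that a number pairs mice, and deviations of same-numbered libraries correlated at -0.136 to 0.126. With 3 libraries per group, such correlations cannot decide whether mice were paired. In 3 of 9 libraries the best match in both other groups had the same number.

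Values near the floor, as for Acta2, are limited by depth, which is an estimate here. The fold changes of low genes are understated by the pseudocount. The description without knockout-labelled library 1 of the blocks' spread was chosen after seeing the data.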
